A study of Mus musculus with 8 samples.

Results

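The proteasome genes of the mouse lacrimal gland (LG), the gland that secretes the watery part of tears, were compared between mice fed ad libitum (AL) and mice under calorie restriction (CR). Members were all genes of the count table whose symbol starts with Psma to Psmg followed by a number, which gave 50 of 24552 genes. Of these, 47 were counted often enough to be tested beside all other tested genes (11211 in total). The symbols cover the core particle, the regulatory particle, their assembly chaperones, the activators and an inhibitor. They also take in Psmc3ip and Psme2b, which are not subunits in the usual sense.

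Female C57BL/6J mice entered the diet at 6 to 7 months of age and exorbital LGs were taken at 10 to 11 months. The AL group (n = 4) had free access to chow, and the CR group (n = 4) received 40% less food for 4 months, once a day shortly before dark. The study kept cohorts at 2 places with different chows, and which of them gave the sequenced glands is not given in the sources used here. Each library was made from RNA of the gland as a whole by sequencing transcript 3' ends, so fewer cells of a type and less RNA per cell cannot be told apart.

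The proteasome is the protease that degrades proteins tagged with ubiquitin. Its barrel-shaped 20S core is built of alpha rings, which gate the entrance, and beta rings, which hold the catalytic sites, and the 19S cap binds ubiquitin, unfolds the substrate with a ring of ATPases and feeds it into the core. Interferon-gamma induces 3 alternative catalytic subunits, Psmb8, Psmb9 and Psmb10, which replace Psmb5, Psmb6 and Psmb7 in newly assembled cores to form the immunoproteasome, abundant in leukocytes and suited to making peptides for MHC class I. In a secretory gland the proteasome also degrades misfolded proteins sent back from the endoplasmic reticulum.

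Library totals ranged from 12051881 to 22156511 counts in AL and from 13720079 to 19310319 counts in CR, and 3 counts, taken as the floor of detection, corresponded to 0.152 to 0.231 CPM, counts scaled to the size of the library. The proteasome genes together took between 0.144% and 0.191% of the counts of a library. All 10 LG markers looked at, among them Aqp5, Pax6 and Bhlha15, were detected, of which Sox10 was called higher and Pigr lower in CR. Genes used here as markers of other tissues or cell types varied between libraries, some of them with diet. Whether they were transcribed in the gland itself or in other tissue was not tested. Summed CPM of 8 genes of parotid saliva proteins ran from 2021 to 25431 in AL and from 20071 to 239570 in CR, with 3 of the 8 called higher, and Prh1 and Prp2 were at 0 in AL 2 and AL 4. For 12 pan-leukocyte markers, 2 of them too rare to test, the sum ran from 142 to 361 CPM in AL and from 117 to 145 CPM in CR. Of the 10 tested, 9 had negative fold changes, 7 of them with an unadjusted edgeR p under 0.05, and 1, Ptpn6, was called lower. Cd37, a B cell marker, was below 2 CPM in every library. Summed white adipose markers ran from 7.21 to 17.95 CPM in AL and from 13.5 to 73.4 CPM in CR, with 4 of 5 tested at an unadjusted edgeR p under 0.05 and higher. Summed skeletal muscle markers ran from 1.29 to 12.5 CPM in AL and from 3.32 to 63.7 CPM in CR, with 2 of 5 at that level and higher. CR 1 (3.32 CPM) and CR 3 (3.96 CPM) lay within the AL range of the muscle sum. No adipose or muscle marker was called. Each proteasome gene below was tested on the whole gland, and the part these genes' sources had in its value was not tested. Values given with the parotid genes as a covariate cannot decide it. The mean log2 level of those genes did not overlap between the diets (2.99 to 7.49 in AL, 9.14 to 12.7 in CR).

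No proteasome gene passed the thresholds in the main test, edgeR. With edgeR's quasi-likelihood test, adjusted over 11211 genes by Benjamini-Hochberg, 0 of 47 members reached an adjusted p under 0.05 with a fold change of at least 1.5, against 1.98% of all genes tested. None was called higher, against 1.2% of all genes, and none lower, against 0.785%. At an unadjusted p under 0.05 there were 4 members, 8.51% of those tested, against 16.7% of all genes. Psmf1, Psmg4 and Psmd3 were higher in CR, 6.38% of the members against 8.62% of all genes, and Psmc6 was lower, 2.13% against 8.1%. The inhibitor Psmf1 was the 1 member called under alternatives, namely DESeq2, the test that the study used (adjusted p = 0.0149), and 4 further settings. In 2 members, Psmf1 and Psmc4, the AL and CR libraries did not overlap, which is 4.26% of the members against 9.79% of all genes.

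Most members had small estimated changes between the diets. Among the 47 tested, 18 had a positive and 29 a negative log2 fold change (CR against AL), with a median of -0.13, against 0.01 over all genes. The median size of the change, without its sign, was 0.19 for the members and 0.30 for all genes. For 35 members, 74.5%, the 95% confidence interval lay within a 2-fold change in either direction, which held for 48.4% of all genes, and for 13 members, 27.7%, it lay within 1.5-fold, against 13% of all genes. The median standard error was 0.23 on the log2 scale for the members and 0.31 for all genes. The plot of fold changes by role shows that intervals of the abundant core and cap subunits were narrow and those of the rare inducible subunits wide.

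**Figure D1:**
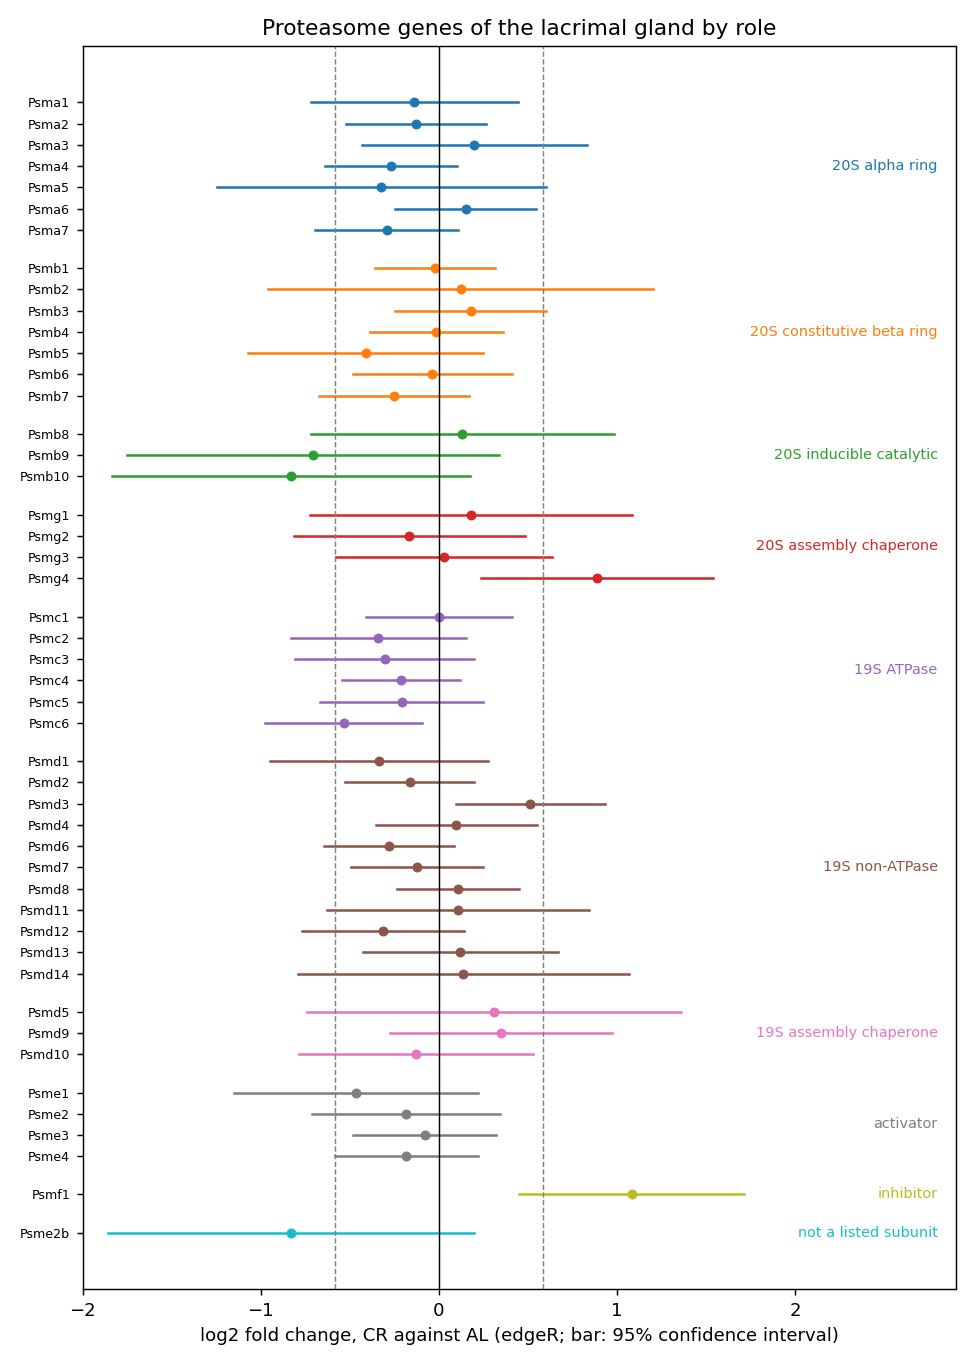
Log2 fold change of each of the 47 tested proteasome genes (x axis, CR against AL, edgeR), grouped by role (colour and label at the right), with a bar for the 95% confidence interval and dashed lines at a 1.5-fold change. Most points lie within the dashed lines, and Psmf1 at 1.08 and Psmg4 at 0.89 stand furthest to the right.

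In the 20S core, the 14 constitutive subunits together were at 637 ± 55.8 CPM in AL and 595 ± 47.1 CPM in CR (SD, n = 4 each). The AL libraries 1 to 4 had summed CPM of 716, 632, 586 and 614, and the CR libraries 629, 527, 604 and 622. The diets overlapped, and the lowest sum was CR 2. Of the 7 alpha subunits 5 had a negative and 2 a positive log2 fold change, from -0.32 to 0.20, and of the 7 constitutive beta subunits again 5 were negative and 2 positive, from -0.41 to 0.18. Mean levels over the 8 libraries ran from 5.69 to 124 CPM in the alpha ring and from 5.95 to 112 CPM in the beta ring. None had an unadjusted p under 0.05.

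Psma7, a subunit of the alpha ring and the most counted member of that ring, had 170, 133, 130 and 112 CPM in AL and 135, 104, 101 and 105 CPM in CR. Its log2 fold change was -0.29 (SE 0.18, edgeR adjusted p = 0.472), and CR 1 was within the AL range. Psma5, the least counted alpha subunit, was at 6.32, 6.99, 2.48 and 9.49 CPM in AL against 2.33, 5.63, 4.15 and 8.11 CPM in CR, a log2 fold change of -0.32 (SE 0.42). Here the 2 lowest libraries were 1 of each diet, AL 3 and CR 1.

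Psmb4, a non-catalytic beta subunit with the highest count of that ring, measured 126, 118, 104 and 104 CPM in AL and 113, 89.9, 131 and 113 CPM in CR. The group means, 113 and 112 CPM, were nearly equal, and the 95% interval of its log2 fold change ran from -0.39 to 0.36. Counts of 3' ends do not scale with transcript length, but they depend on whether the annotation holds the 3' end in use, so differences in level between subunits, which sit in the core in equal numbers, are not read here as differences in transcript number.

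Of the catalytic subunits, Psmb5 carries the chymotrypsin-like, Psmb6 the caspase-like and Psmb7 the trypsin-like site. Psmb5 was measured at 7.24, 6.87, 3.94 and 9.13 CPM in AL and 4.60, 5.03, 3.72 and 7.11 CPM in CR. Psmb6 had 58.4, 45.6, 60.6 and 47.2 CPM in AL and 68.3, 38.0, 56.1 and 44.2 CPM in CR. For Psmb7 the AL values were 19.3, 19.01, 15.7 and 20.3 CPM and the CR values 14.6, 15.7, 12.1 and 20.2 CPM. All of them overlapped between diets, with log2 fold changes of -0.41 (SE 0.30) for Psmb5, -0.04 (SE 0.20) for Psmb6 and -0.25 (SE 0.19) for Psmb7. Adjusted p values from edgeR were 0.553, 0.958 and 0.576.

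Of the inducible counterparts, Psmb9 and Psmb10 were rarer than Psmb6 and Psmb7. Psmb8, with a mean of 5.49 CPM over all libraries, was close to Psmb5 with 5.95 CPM. Psmb8, which replaces Psmb5, had 2.93, 4.48, 7.07 and 6.49 CPM in AL and 2.76, 5.03, 10.0 and 5.16 CPM in CR. The highest library of each diet was number 3, and the log2 fold change was 0.13 (SE 0.39, edgeR adjusted p = 0.919), or 1.11 (adjusted p = 0.647) with the level of the parotid genes as a covariate. The diets did not overlap in that level, so a fit with it cannot tell it from diet. Psmb9, which replaces Psmb6, had 1.23, 3.37, 4.59 and 3.50 CPM in AL and 1.13, 1.01, 2.72 and 2.89 CPM in CR, a log2 fold change of -0.71 (SE 0.48, edgeR adjusted p = 0.511), which turned to 0.81 (adjusted p = 0.789) with that covariate. AL 1 lay among the CR libraries, and the other AL libraries above all of them.

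Psmb10, which replaces Psmb7, had 2.54, 2.82, 9.18 and 3.15 CPM in AL and 2.33, 2.07, 3.90 and 1.61 CPM in CR. Its log2 fold change of -0.83 (SE 0.46, edgeR adjusted p = 0.410) rested on AL 3, without which it was -0.20. That library also had the highest summed leukocyte markers, 361 CPM, against 142, 191 and 191 CPM in AL 1, AL 2 and AL 4. Whether the leukocytes account for the value was not tested.

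Set against the constitutive subunit in the same library, the inducible subunits showed no difference between diets that passed a test. Psmb8 counts were 0.404, 0.652, 1.80 and 0.711 times those of Psmb5 in AL and 0.600, 1, 2.70 and 0.727 times in CR. The difference in the mean log2 ratio was 0.45 (SE 0.66), with a two-sided exact permutation p of 0.543. For Psmb9 to Psmb6 the ratios were 0.0211, 0.0739, 0.0758 and 0.0741 in AL and 0.0166, 0.0265, 0.0486 and 0.0653 in CR, a log2 difference of -0.65 (SE 0.62, exact permutation p = 0.286). CR values lay on both sides of the low AL 1 and below the other 3 AL libraries. For Psmb10 to Psmb7 they were 0.131, 0.148, 0.583 and 0.155 in AL and 0.160, 0.132, 0.323 and 0.0799 in CR, with a log2 difference of -0.42 (SE 0.65, exact permutation p = 0.629).

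Adjusted over the 3 ratios by Benjamini-Hochberg, each exact permutation p was 0.629, and the smallest p that 4 against 4 libraries allow is 0.0286. A 2-fold shift of a ratio would be within the error of these differences. In AL 3 and CR 3 Psmb8 exceeded Psmb5, in CR 2 the counts were equal, and in the other 5 libraries Psmb5 was higher, whereas Psmb6 and Psmb7 exceeded their counterparts in all 8.

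**Figure D2:**
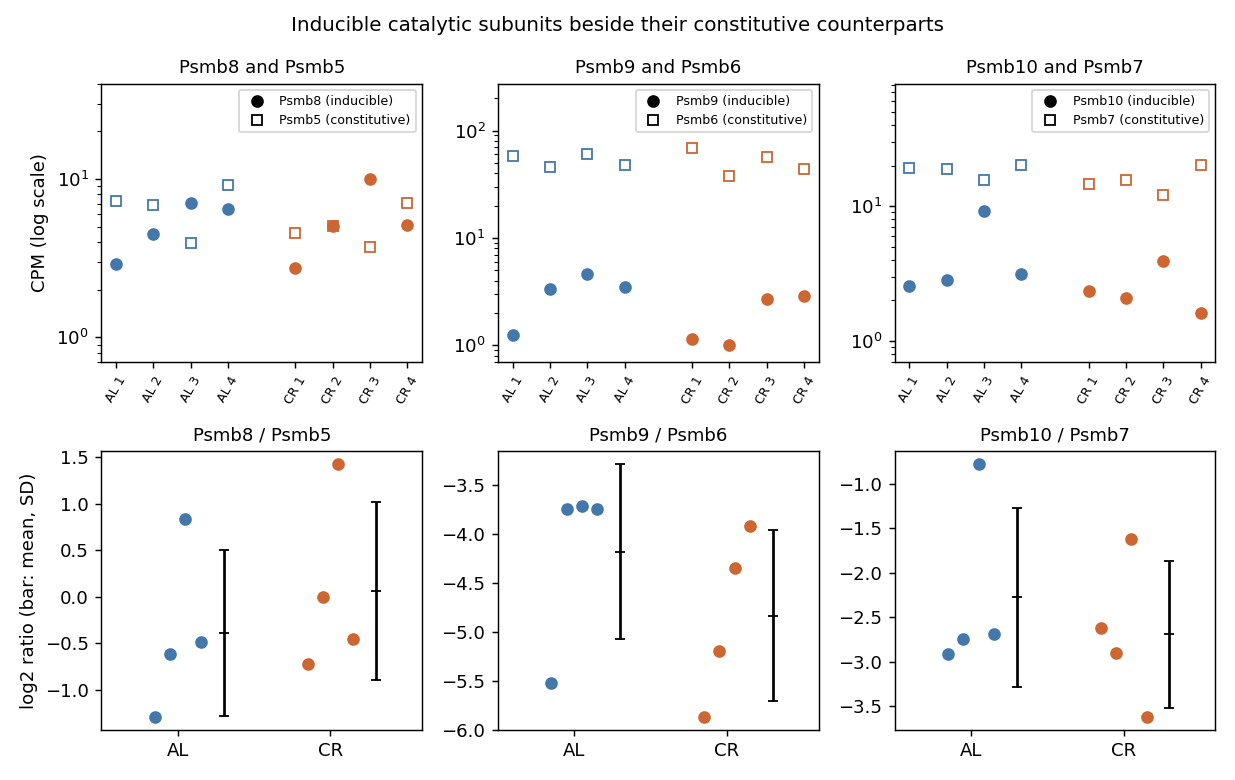
Top, CPM of each inducible subunit (filled) and its constitutive counterpart (open) in the 8 libraries on a log scale; bottom, the log2 ratio of their counts per library with mean and SD by diet. AL 3 and CR 3 have the highest ratios of Psmb8 to Psmb5 and of Psmb10 to Psmb7, and the diets overlap for all 3 pairs.

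Assembly of the core needs the chaperones Psmg1 to Psmg4, which build the alpha ring. Psmg4 had 2.85, 3.13, 5.25 and 2.99 CPM in AL and 4.24, 7.76, 7.00 and 7.22 CPM in CR. AL 3 exceeded CR 1, while the remaining CR libraries lay above all of AL. The log2 fold change of 0.89 (SE 0.30) had an unadjusted edgeR p of 0.0118 and an adjusted p of 0.150. Its usual partner Psmg3 had a log2 fold change of 0.03 (SE 0.28). Psmg2, the most counted of the chaperones, was at -0.17 (SE 0.30), with 6.85 to 13.4 CPM in AL and 5.02 to 13.2 CPM in CR. Psmg1 was at 0.18 (SE 0.42) with 1.38 to 4.87 CPM in AL and 2.17 to 5.22 CPM in CR.

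The 19S cap, with 17 subunits, summed to 871 ± 65.4 CPM in AL and 795 ± 67.9 CPM in CR (SD, n = 4 each). Summed CPM were 943, 813, 908 and 817 in AL and 893, 735, 780 and 772 in CR. CR 1 lay within the AL range, and the other CR libraries lay below it. Of the 6 ATPases, Psmc1 to Psmc6, 5 had negative log2 fold changes, and that of Psmc1 was 0.00.

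Psmc6 was the one ATPase with an unadjusted p under 0.05, and it is named for that, after its values were seen. It had 66.0, 51.5, 45.9 and 38.6 CPM in AL and 43.9, 35.3, 31.3 and 29.0 CPM in CR. CR 1 lay above AL 4 only, and the other CR libraries were below all of AL. The log2 fold change was -0.53 (SE 0.20, 95% interval -0.97 to -0.09), with an edgeR p of 0.0214 and an adjusted p of 0.198. Without AL 1 it was -0.37, and with the level of the parotid genes as a covariate -1.24, in a fit that cannot tell that level from diet.

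Psmc4, the least counted ATPase, was the member whose CR values all lay below AL, a pattern found in 5.2% of all genes. Its AL values of 21.7, 19.8, 20.04 and 19.9 CPM and its CR values of 18.9, 17.1, 16.3 and 17.9 CPM lay close together. A log2 fold change of -0.21 (SE 0.15) gave an edgeR adjusted p of 0.544. Psmc3, the most counted ATPase, had 180, 134, 194 and 121 CPM in AL and 174, 116, 128 and 92.2 CPM in CR, a log2 fold change of -0.30 (SE 0.23) with overlapping diets.

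Among the 11 non-ATPase subunits, 6 had positive and 5 negative log2 fold changes, from -0.34 to 0.51. Psmd3, a scaffold subunit of the lid, had 24.3, 24.2, 19.97 and 23.8 CPM in AL and 24.1, 43.3, 31.7 and 32.4 CPM in CR. CR 1 fell within AL and the other CR libraries above it. The log2 fold change of 0.51 (SE 0.19) had an unadjusted edgeR p of 0.0206 and an adjusted p of 0.195, and without CR 2 it was 0.36.

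Psmd4, a ubiquitin receptor, measured 79.2, 62.2, 80.5 and 55.5 CPM in AL and 89.9, 58.4, 89.0 and 59.5 CPM in CR (log2 fold change 0.10, SE 0.21). Psmd14, the deubiquitinase that removes the ubiquitin chain before degradation, had 8.55, 9.20, 3.35 and 15.1 CPM in AL and 6.58, 10.8, 5.57 and 16.9 CPM in CR (log2 fold change 0.14, SE 0.43). In neither did diet order the libraries. The 3 chaperones of cap assembly gave log2 fold changes of -0.13 (SE 0.30) for Psmd10, also known as gankyrin, 0.31 (SE 0.48) for Psmd5 and 0.35 (SE 0.29) for Psmd9. Psmd10 ranged from 5.12 to 11.0 CPM in AL and from 4.94 to 11.5 CPM in CR. Psmd5 ranged from 0.729 to 4.31 CPM in AL and from 1.98 to 5.83 CPM in CR.

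All 4 activators had negative log2 fold changes, none of which reached an unadjusted p under 0.05. That of Psme1 turned to 0.29 with the parotid covariate, which cannot be told apart from diet. Psme1 and Psme2 form the interferon-inducible PA28 cap. Psme1 had 9.09, 9.88, 16.3 and 13.1 CPM in AL and 4.17, 7.82, 10.9 and 12.1 CPM in CR, a log2 fold change of -0.46 (SE 0.31, edgeR adjusted p = 0.511). As with Psmb10 and Psmb9, AL 3 was its highest library. Psme2 had 4.85, 9.20, 8.24 and 7.36 CPM in AL and 6.44, 7.16, 5.63 and 6.83 CPM in CR (log2 fold change -0.19, SE 0.24), but 52% of the 75-base windows at the end of its transcripts are shared with the retrogene copy Psme2b, so reads of the pair could have been split or dropped in counting. Psme4, a large nuclear activator and the most counted one, was at 105, 78.0, 71.5 and 92.5 CPM in AL and 67.8, 76.1, 67.2 and 94.4 CPM in CR (log2 fold change -0.18, SE 0.18). Psme3, the nuclear relative of PA28, was at -0.08 (SE 0.19).

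The largest log2 fold change among the members was that of Psmf1, the inhibitor PI31, a protein that blocks the core in the test tube and acts as an adaptor for proteasome transport in cells. Psmf1 lies on chromosome 2 at 151716062 to 151744199 (GRCm38.p6). It had 12.2, 12.3, 11.7 and 10.2 CPM in AL and 37.8, 30.2, 15.5 and 14.6 CPM in CR. The lowest CR value exceeded the highest AL value, which was so for 4.58% of all genes, and CR 1 and CR 2 stood well above CR 3 and CR 4. The log2 fold change was 1.08 (SE 0.29, 95% interval 0.45 to 1.71), with an edgeR p of 0.00283 and an adjusted p of 0.0801, over the threshold. DESeq2 gave an adjusted p of 0.0149, while edgeR with each library left out in turn gave log2 fold changes from 0.80 to 1.27. The adjusted p was under 0.05 in 1 of these 8 fits, without CR 4 (0.0138), and was 0.166 without CR 1 and 0.225 without CR 2.

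The parotid protein genes moved partly with it. Their summed CPM were 25431, 14931, 10700.1 and 2021 in AL 1 to AL 4 and 215727, 239570, 187679 and 20071 in CR 1 to CR 4, so that CR 4, with the lowest Psmf1 of its diet, was also lowest in these genes. CR 3 differed in this sum, with 15.5 CPM of Psmf1 and 187679 CPM of parotid genes. The mean log2 level of the parotid genes, in which each gene weighs the same, was 7.49, 6.13, 6.19 and 2.99 in AL 1 to AL 4. In CR 1 to CR 4 it was 11.4, 12.7, 10.02 and 9.14. With this mean log2 level as a covariate, the log2 fold change of Psmf1 was 0.07 (edgeR adjusted p = 0.977). The diets did not overlap in this level, so the fit cannot tell the level and the diet apart.

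**Figure D3:**
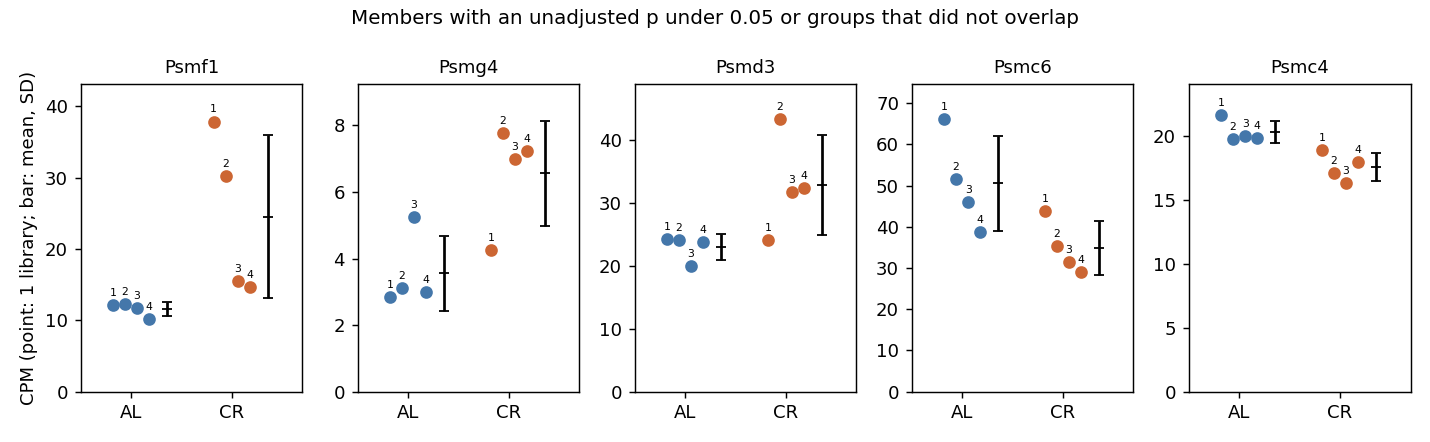
CPM of the 4 members with an unadjusted p under 0.05 and of Psmc4, whose diets did not overlap, by diet, each point a library with its replicate number and bars for mean and SD. For Psmf1 the AL libraries lie between 10.2 and 12.3 CPM and the CR libraries between 14.6 and 37.8 CPM.

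The remaining members were rare or are not subunits. Psme2b had 2.003, 2.09, 2.11 and 1.07 CPM in AL and 0.990, 0.83, 0.557 and 1.67 CPM in CR. At -0.83 (SE 0.47, edgeR adjusted p = 0.423) it had the lowest log2 fold change of all members. Psma8, the alpha subunit of the testis proteasome, had 1 count in AL and 0 in CR over all libraries. Psmb11, the catalytic subunit of thymic epithelium, had 0 counts in all 8 libraries. Psmc3ip, a recombination protein of germ cells and not a subunit, had 36 counts in AL and 17 in CR (exact permutation p = 0.257 on CPM, 0.514 after adjustment).

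Several members followed the total count of the library, even though CPM are scaled for it. Spearman's rho with the total over the 8 libraries was at least 0.8 for 8 members, 17% of those tested, against 6.73% of all genes, and at most -0.8 for 4 members, 8.51%, against 3.32% of all genes. These values are descriptions, since the points share the depth itself. The 8 were Psmd14 (0.98), Psmg1 (0.95), Psmb2 (0.88), Psma5 and Psmd1 (0.86), Psmc2 (0.83), and Psmb5 and Psma3 (0.81). The 4 were Psmd4 and Psmd13 (-0.88), and Psmc1 and Psmc5 (-0.83). They were named after their values were seen.

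Psmb2, a non-catalytic beta subunit, and Psmd13 show how large the range was. In order of rising total, AL 3, CR 3, CR 1, AL 1, AL 2, CR 2, CR 4 and AL 4, it had 2.84, 4.52, 2.41, 2.85, 6.20, 7.52, 10.6 and 11.0 CPM. Psmd13, a lid subunit, had 59.5, 60.1, 60.6, 51.4, 37.7, 38.1, 35.5 and 30.3 CPM in that order. Libraries of the same replicate number were neighbours in the order of totals. Both diets hold low and high totals, with medians of 15304900 counts in AL and 15619168.5 in CR. With the log2 total as a covariate, an alternative chosen after the data had been seen, the median log2 fold change of the members was -0.11, and Psmf1 had an adjusted p of 0.0332 (edgeR).

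**Figure D4:**
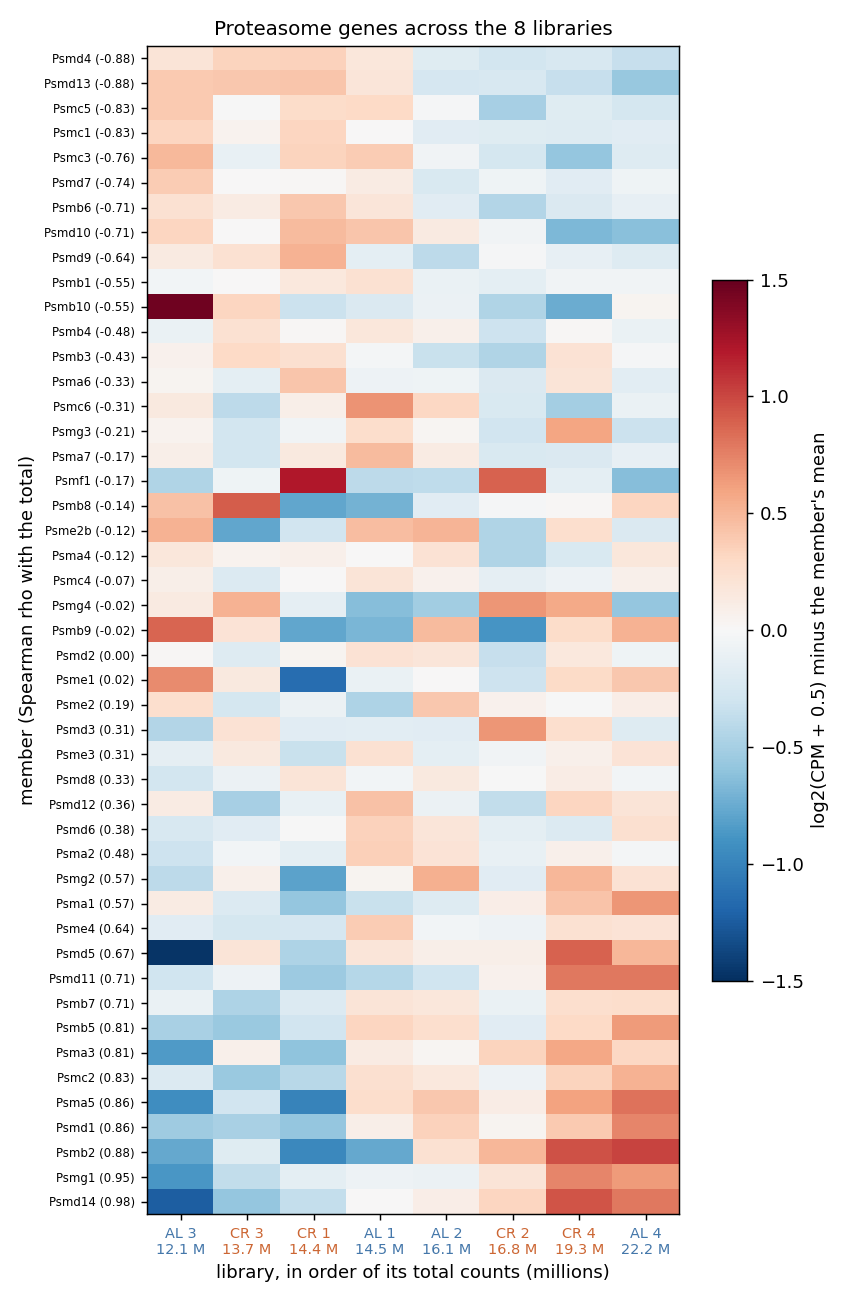
Log2(CPM + 0.5) of each tested member minus its mean (colour), for the 8 libraries in order of total count (x axis) and the members in order of Spearman's rho with the total (y axis, rho in parentheses). The upper rows turn from red to blue and the lower rows from blue to red from left to right, irrespective of diet (label colour).

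Genes that work with the proteasome were taken from lists of their function. Of 11 partner genes tested, including the ubiquitin receptor Adrm1, the deubiquitinases Uchl5 and Usp14 and the assembly factor Pomp, 0 were called and 0 had an unadjusted p under 0.05 in edgeR. The largest fold changes were 0.47 (SE 0.26) for Akirin2, which carries proteasomes into the nucleus, and -0.33 (SE 0.44) for Zfand2a. The 7 genes of the bounce-back axis, in which Nfe2l1 is cut by Ddi2 and switches on proteasome subunits, gave 0 called and 0 at an unadjusted p under 0.05. Nfe2l1 itself had a log2 fold change of 0.01 (SE 0.19). Maff was at 0.68 (SE 0.56) and Ddi2 at -0.51 (SE 0.47).

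Nfe2l1 binds the antioxidant response element, so promoters were searched for its core. RefSeq promoters on GRCm38.p6, 250 bases before to 50 after the start, were at hand for 42 of the 50 genes. The core TGACNNNGC, on either strand, was found in 6 genes, in 13.3% of the 45 promoters of members and in 12.4% of the 32851 promoters of all genes. The matches are shown 5' to 3' on the gene's strand, with the core, or its complement, in capitals.

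Psmb5, chr14:54618024-54618052, minus strand: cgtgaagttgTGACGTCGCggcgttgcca
Psmb6, chr11:70525338-70525366, plus strand: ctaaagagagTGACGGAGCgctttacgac
Psmc6, chr14:45329587-45329615, plus strand: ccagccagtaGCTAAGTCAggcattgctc
Psmd9, chr5:123228149-123228177, plus strand: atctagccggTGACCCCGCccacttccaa
Psmd12, chr11:107479278-107479299, plus strand: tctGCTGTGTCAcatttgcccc
Psme4, chr11:30771758-30771786, plus strand: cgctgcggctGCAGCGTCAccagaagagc

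The matches lay from 247 bases before the start (Psmd12) to the start itself (Psme4). The log2 fold changes were -0.53 for Psmc6, -0.41 for Psmb5, -0.31 for Psmd12, -0.18 for Psme4, -0.04 for Psmb6 and 0.35 for Psmd9, and of all 47 members tested 29 were negative.

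The elements of the interferon pathway were searched likewise for the inducible genes. GAAANNGAA, the core of the IRF element, was in 15.6% of member promoters and 8.56% of all promoters, and TTCNNNGAA, the STAT element, in 6.67% and 8.3%. The NF-Y box CCAAT, found in many housekeeping promoters, was in 33.3% and 37.4%. IRF matches lay in Psmb3, Psmb4, Psmc2, Psmd4, Psmd9, Psme1 and Psmg4, and STAT matches in Psmb8, Psmd2 and Psmg1, so most were in members that are not interferon-inducible. Of the inducible genes, Psmb9, Psmb10 and Psme2 had neither in this window. The matches of Psmb8, Psme1 and Psmg4 are shown because Psmb8 and Psme1 belong to the interferon-inducible set and Psmg4 had the second largest fold change. Capitals mark the element or its complement.

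Psmb8, STAT, chr17:34198088-34198116, plus strand: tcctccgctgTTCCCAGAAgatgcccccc
Psme1, IRF, chr14:55578494-55578522, plus strand: gagctgtgctTTCGCTTTCccttcccgct
Psmg4, IRF, chr13:34162969-34162997, plus strand: gcgcgcatctGAAAGTGAAagagcgttcc

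Of 8 interferon factors tested, 0 were called by edgeR and 4 had an unadjusted p under 0.05. Irf9 (log2 fold change 0.74, SE 0.28) and Stat2 (0.65, SE 0.21), which join to drive the type I interferon response, were positive. Irf8 (-0.89, SE 0.27), a factor of myeloid and B cells, and the receptor Ifngr1 (-1.12, SE 0.31) were negative. Irf1, which induces Psmb8, Psmb9 and Psmb10, was at -0.14 (SE 0.31) and highest in AL 3, at 30.0 CPM, and CR 3, at 21.9 CPM.

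The class I peptide pathway, which uses the peptides of the proteasome, gave 0 calls of 10 genes tested. At an unadjusted p under 0.05 stood the heavy chains H2-K1 (log2 fold change 0.83, SE 0.32) and H2-D1 (0.50, SE 0.20) and their activator Nlrc5 (1.30, SE 0.57), all positive. H2-K1 had 75.4, 105, 144 and 76.4 CPM in AL and 179, 224, 231 and 79.1 CPM in CR, where CR 4 lay within AL. Tap1, which pumps peptides into the endoplasmic reticulum and shares a promoter region with Psmb9, was at 0.69 (SE 0.46), while Psmb9 was at -0.71. Exons of these genes overlap on opposite strands, so with the strand setting unknown their reads may not be told apart. The difference between them was not tested. The lowest value in this list was -0.59 (SE 0.29) for Calr.

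Upstream of the proteasome, Vcp, the unfoldase that pulls proteins out of the endoplasmic reticulum, had 198, 158, 153 and 180 CPM in AL and 127, 108, 121 and 156 CPM in CR. CR 4 lay within the AL range and the other CR libraries below it. The log2 fold change was -0.43 (SE 0.18), with an unadjusted edgeR p of 0.0340 and an adjusted p of 0.247. Of 4 ubiquitin ligases tested with edgeR, 0 were called and 1 had an unadjusted p under 0.05. Stub1, a chaperone-linked ligase, had an unadjusted edgeR p of 0.00676 (log2 fold change 0.77, SE 0.24, adjusted p = 0.117), and Fbxo30 had the lowest value (-0.41, SE 0.39). Fbxo32, a ligase of muscle wasting under fasting, was at 0.16 (SE 0.21), and Trim63 was too rare to test.

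Counting itself limits some members. Of the 50 genes, 17 share at least 1 window of 75 bases at the end of their transcripts with another gene, with 36.4% of windows for Psmb5, 44.5% for Psma5 and 49.8% for Psmb7, whose end overlaps Nek6 on the other strand. Exons of 12 members overlap a gene on the opposite strand. Whether counting used strand is not given in the sources used here, so reads of these pairs may not have been told apart.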

How the data were processed

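RNA of LGs from 4 AL and 4 CR mice was sequenced from QuantSeq 3' libraries. The authors deposited whole-number counts per gene, made, per the study's methods, with cutadapt, STAR on mm10 and HTSeq on the ROSALIND platform. Versions, annotation and strand setting are not given in the sources used here. The deposited log2 values are the counts divided by DESeq2's size factor, plus 1, on the log2 scale. They were recomputed to within 0.00012 and not used further.

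Of 24557 rows, 5 with repeated symbols were dropped. Genes passing edgeR's filterByExpr were fitted with RLE factors and the quasi-likelihood F test (edgeR 4.0.16, R 4.3.3, Benjamini-Hochberg over 11211 genes). Standard errors were taken from the fold change and its F value (log2 change over root F). Calls needed an adjusted p below 0.05 plus a 1.5-fold difference, the thresholds of the study, which applied them to DESeq2 results. CPM are counts over the RLE-scaled library size. Floors and exact tests cover counting error and the spread between libraries only, and the labels do not say which animal gave which library. Ratios of counts (pseudocount 0.5 on each count for the log2 scale) were compared by two-sided exact permutation tests.

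Groups follow the diet label. Members named are Psmb5 to Psmb10, the 3 largest changes in each direction, the most and least counted gene of each role, Psme1, Psme2, Psmf1 and those too rare to test. From the other lists, those with an unadjusted p under 0.05 or the largest change each way are named. Further genes were named after their values were seen or as background. The members and lists, among them partners, ubiquitin genes, class I, interferon, leukocyte, lacrimal, parotid, white adipose and muscle genes, were chosen with earlier results of these data known. Some results of the ubiquitin list are not reported here.

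On simulated data with the dispersions of these libraries, the CR against AL fit over 11211 genes called 75 of 96 genes simulated at a log2 change of 2 in size, 24 of 95 at 1 and 2 of 10819 at 0. Other settings tried were DESeq2 1.42.0, upper-quartile and TMM factors, limma 3.58.1 voom with sample weights, other filters, no fold-change threshold, no 50 most counted genes, a replicate block, each library left out, the parotid score or the log2 total as a covariate, and other pseudocounts and medians for ratios. Gene positions and promoters are RefSeq on GRCm38.p6 (mm10), and transcript ends and overlaps GENCODE vM21.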

Additional observations from a re-analysis of the deposited data

Results flagged for a closer look

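In 8 of 56 groups of 4 libraries looked at, 1 library stood apart from the others of its diet by more than Dixon's 95% limit, where chance alone flags about 1 in 20 groups. In AL 3, Psmb10 was at 9.18 CPM against at most 3.15 CPM in the rest of AL, the log2 ratio of Psmb10 to Psmb7 was -0.78 against -2.68 for the nearest, Psmg4 was at 5.25 CPM against 3.13 CPM and Psmd3 at 19.97 CPM against 23.8 CPM. AL 3 had the smallest total count and the highest leukocyte sum of AL, and the part of either was not tested. In AL 1 the log2 ratio of Psmb9 to Psmb6 was -5.52 against -3.75, and Psmc4 was at 21.7 CPM against 20.04 CPM. Psme2b was at 1.07 CPM in AL 4 against 2.003 CPM, and Psma7 at 134.8 CPM in CR 1 against 105 CPM.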

How the results depend on the processing

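Psmf1 passed both thresholds under DESeq2, without a filter on low counts (adjusted p = 0.0350 in edgeR), without CR 4, under the replicate block and with the log2 library total as a covariate, so 1 member was then called higher, and 0 to 1 (edgeR) with each library left out (0 lower in every case). Members at an unadjusted p under 0.05 and lower numbered 3 with limma voom, 4 with the replicate block, 3 with the parotid score and 3 with the total as covariate, and 0 to 3 with a library left out. Those higher numbered 1 with the parotid score and 2 to 3 with a library left out. All genes called higher and lower numbered 134 and 88, but 413 and 316 with DESeq2, 237 and 160 with voom, 271 and 165 without a filter, 388 and 312 with the block, 4 and 0 with the parotid score, 374 and 258 with the total, and 35 to 453 and 25 to 247 with a library left out, the most without CR 4. The median log2 fold change of the members was 0.0735 with the parotid score and ran from -0.21 to -0.0734 with a library left out. The cause was not tested. The labels name no pairing of same-numbered libraries. Their deviations from the group means correlated at 0.182, 0.0995, 0.278 and 0.507. AL 1, AL 2 and AL 4 correlated best with the CR library of their own number, and AL 3 with CR 1. For want of a named pairing the libraries were treated as unpaired. Whether same-numbered libraries were handled together is not given in the sources used here. Under the replicate block Psmf1 had a log2 fold change of 0.97 (edgeR adjusted p = 0.0215) and Psmc6 an adjusted p of 0.0424 at a fold change under 1.5. Between same-numbered libraries the ratio of Psmb8 to Psmb5 was higher and that of Psmb9 to Psmb6 lower in CR in 4 of 4. That of Psmb10 to Psmb7 went both ways, from 0.131 in AL 1 to 0.160 in CR 1 and from 0.155 in AL 4 to 0.0799 in CR 4. These comparisons only describe pairs that the labels do not name.

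Signs turned, in genes not called, for Psmb6 (0.0164) and Psmd14 (-0.0627) under voom and, with the parotid score, for Psma5 (0.57), Psmb4 (0.0266), Psmb5 (0.15), Psmb9 (0.81), Psmd4 (-0.22), Psme1 (0.29) and Psmg2 (0.43). That covariate kept the sign but moved Psmb8 to 1.11, Psmd5 to 1.29, Psmd14 to 1.19, Psmg1 to 1.21, Psmd10 to -1.30, Psmc3 to -0.94 and Psma7 to -0.72, none of them called. The diets did not overlap in the parotid score, so a fit with it cannot tell it from diet. With a library left out they turned for Psmb4 (-0.0974 to 0.0833), Psmb6 (-0.19 to 0.0944), Psmb8 (-0.27 to 0.37), Psmd10 (-0.33 to 0.0507), Psmd14 (-0.25 to 0.50), Psmd5 (-0.0319 to 0.57), Psmg1 (-0.12 to 0.54) and Psmg2 (-0.41 to 0.0352). The log2 ratio difference ran from -0.00596 to 0.86 for Psmb8 to Psmb5, from -1.10 to -0.31 for Psmb9 to Psmb6 and from -0.77 to 0.0840 for Psmb10 to Psmb7. TMM and upper-quartile factors, at least 10 counts per library and leaving out the 50 most counted genes turned no sign among those of the 25 members followed that each setting could fit and moved no count of members called or at an unadjusted p under 0.05 by more than 1.5 times. With 4 libraries per diet, changes of 2-fold are often missed, as the simulation shows, and members below about 3 CPM rest on few counts.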
